A study of Mus musculus with 32 samples.

Results

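The polyamine metabolism genes were examined in RNA from 14 mouse hindbrain tumors, and comprised 10 genes of the 37310 in the count table: Odc1, Amd1, Srm, Sms, Sat1, Smox, Paox, Oaz1, Oaz2 and Azin1. They were chosen by symbol, through the Ensembl identifier of each row, and not by their values. All 10 passed the filter on low counts. The tumors were 6 GMYC and 8 GTML biopsies, fresh-frozen, from transgenic mice of the FVB/N strain. In GMYC (Glt1-tTA/TRE-MYC) mice the tetracycline transactivator, expressed from the Glt1 promoter of glial and progenitor cells, turns on a human MYC transgene, and doxycycline turns it off. GTML mice carry the same driver with a MYCN transgene in place of MYC. Both models therefore share the driver and differ in the oncogene. No tumor-free brain was compared, and neither age nor sex of the mice is given in the labels. The paper sequenced the GMYC tumors and compared them with GTML sequences credited to an earlier study. It also mentions new GTML tumors. A difference by oncogene and one by sequencing study therefore cannot be fully told apart. The question was whether the MYC-driven and the MYCN-driven tumors differed in the expression of the polyamine genes.

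Polyamines (putrescine, spermidine and spermine) are small, positively charged molecules that bind nucleic acids and are needed for growth. Ornithine decarboxylase (Odc1) makes putrescine, and spermidine synthase (Srm) and spermine synthase (Sms) lengthen it with groups supplied by S-adenosylmethionine decarboxylase (Amd1). Acetylation by Sat1 and oxidation by Paox and Smox turn the chain back, antizymes (Oaz1, Oaz2) bind ornithine decarboxylase and send it to the proteasome, and the antizyme inhibitor Azin1 draws antizyme away from it. Odc1 is a textbook target of MYC, which binds the E-box CACGTG and related hexamers.

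Of the 10 genes, 4 were expressed at a lower level in GTML than in GMYC tumors (edgeR's quasi-likelihood test, Benjamini-Hochberg adjusted p under 0.05), and 0 at a higher level. These were Amd1, Paox, Oaz1 and Azin1. The background among all 21024 genes tested was 9.71% called lower and 11.5% called higher in GTML, 21.2% in all. The median log2 fold change (GTML over GMYC throughout) was -0.33 over the 10 genes and 0.04 over all genes tested, and 8 of the 10 values were negative. Odc1, Srm and Sms, the enzymes that build the polyamine chain apart from Amd1, were not called. Only Paox also had an adjusted p under 0.01 together with an absolute log2 fold change above 1, which 3.22% of all genes tested had. Since a tumor biopsy is a mixture, fewer cells of a type and less RNA per cell cannot be told apart in any of these values.

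The bases upstream of the annotated start are shown for the genes called that had a window (Amd1, Oaz1, Paox) and for those that held a hexamer bound by MYC proteins (Odc1, Oaz1, Sms). Each run is 250 bases long, reads 5′ to 3′ on the strand of the gene and ends at the base before the start (RefSeq, GRCm38.p6). Capitals mark the E-box or the related hexamer CACGCG, the latter read on either strand.
Odc1, chr12:17544623-17544872, plus strand: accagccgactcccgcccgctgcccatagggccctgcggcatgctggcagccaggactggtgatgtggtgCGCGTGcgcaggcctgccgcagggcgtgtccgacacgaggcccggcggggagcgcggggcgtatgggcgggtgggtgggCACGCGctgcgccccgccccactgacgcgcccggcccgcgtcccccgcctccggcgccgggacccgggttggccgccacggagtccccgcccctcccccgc
Amd1, chr10:40302189-40302438, minus strand: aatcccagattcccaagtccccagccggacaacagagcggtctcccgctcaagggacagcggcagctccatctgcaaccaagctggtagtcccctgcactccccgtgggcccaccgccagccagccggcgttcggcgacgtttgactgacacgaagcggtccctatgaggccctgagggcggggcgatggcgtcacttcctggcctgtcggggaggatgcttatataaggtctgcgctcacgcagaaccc
Oaz1, chr10:80826406-80826655, plus strand: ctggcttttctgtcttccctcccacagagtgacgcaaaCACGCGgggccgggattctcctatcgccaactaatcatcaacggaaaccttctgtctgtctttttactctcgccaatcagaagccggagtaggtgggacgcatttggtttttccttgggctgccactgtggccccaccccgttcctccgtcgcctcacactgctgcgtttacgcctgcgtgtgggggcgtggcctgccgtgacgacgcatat
Paox, chr7:140125407-140125656, plus strand: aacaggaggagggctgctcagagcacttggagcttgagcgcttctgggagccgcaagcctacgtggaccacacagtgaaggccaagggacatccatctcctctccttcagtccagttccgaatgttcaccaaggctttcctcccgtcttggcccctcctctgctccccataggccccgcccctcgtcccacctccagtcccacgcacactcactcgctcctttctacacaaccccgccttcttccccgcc
Sms, chrX:157492288-157492537, minus strand: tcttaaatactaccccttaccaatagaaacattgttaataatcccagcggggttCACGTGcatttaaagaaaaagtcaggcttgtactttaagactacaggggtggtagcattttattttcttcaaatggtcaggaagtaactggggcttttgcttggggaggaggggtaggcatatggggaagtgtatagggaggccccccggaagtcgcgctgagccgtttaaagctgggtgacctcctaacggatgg

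Windows were found for 8 of the 10 genes, Srm and Azin1 not being among them. CACGTG stood in 1 of the 8, Sms, in the window of 1 of its annotated starts, beginning 196 bases upstream (offset -196). Of all 27025 genes with a window, chromosome 18 not included, 6.86% held it. The related hexamer in either orientation stood in 3 of the 8 (Odc1 with 2 matches, Oaz1 with 1 and the other start of Sms with 1) against 8.65% of all genes. The share of G and C in these windows was 80.0% for Odc1, 58.0% for Oaz1 and 75.2% for Sms. The genes it was set against were not matched for that share, so no enrichment is read from it. Of the genes called lower in GTML, Oaz1 held the related hexamer, and the windows of Amd1 and Paox held neither hexamer. A match describes the letters of the window and not binding, which was not measured here. Bases downstream of the start, including introns, were not searched, so a window without a hexamer does not mean a gene without one.

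The driver genes followed the labels. Myc reads were at 128 ± 47.5 CPM (counts scaled to a common library size with TMM factors, mean ± SD, n = 6) in GMYC and 5.198 ± 1.89 (n = 8) in GTML tumors. Mycn reads were at 23.0 ± 10.8 and 159 ± 28.0 CPM. The MYC transgene is human and reads were aligned to the mouse genome, so Myc reads need not give the level of the transgene. Total counts ranged from 4602294 to 7279811 per tumor, and no 2 tumors of a model agreed within sampling noise (chi-square per degree of freedom of 5.67 or more). GMYC tumor 6 had the fewest Myc reads of the 6 GMYC tumors, at 33.4 CPM, where the next had 134 CPM. Small nucleolar RNAs took a share of the counts that no label accounts for. This share was above 0.3% in GMYC tumors 1 to 4 and GTML tumors 1 and 2 and below it in the other 8, so most GMYC tumors lay on one side and most GTML tumors on the other. The split followed the order of the sample records, in which the tumors above 0.3% came first and those below it after them. What this order stands for is not stated and was not tested. Values within each side are therefore given for the polyamine genes. Summed astrocyte markers were at 803 to 1376 CPM in GMYC and 540 to 965 CPM in GTML tumors, with a negative fold change for 7 of 7 markers and 0 called. The largest part of these sums was Slc1a2, at a mean of 702 CPM in GMYC and 587 CPM in GTML tumors. Slc1a2 is Glt1, whose promoter drives the transgene in both models, so the sums need not measure astrocytes alone. Summed microglia markers were at 143 to 246 and 87.3 to 313 CPM (1 of 8 called, lower in GTML), oligodendrocyte markers at 154 to 345 and 157 to 366 CPM (1 of 6, higher), cerebellar neuron markers at 25.1 to 192 and 45.1 to 84.9 CPM (1 of 5 tested, lower), endothelial markers at 57.3 to 161 and 107 to 254 CPM (1 of 5, higher) and erythroid markers at 53.4 to 177 and 41.6 to 134 CPM (4 of 5, lower). The cerebellar marker called, Cbln3, had medians of 0.907 CPM in GMYC and 1.11 CPM in GTML tumors, and its highest GMYC value was 62.6 CPM. Among the erythroid markers Alas2 had the highest mean, 35.5 CPM in GMYC and 50.8 CPM in GTML tumors, and was not called. The 4 called were globin genes, with log2 fold changes from -2.55 (Hbb-bt) to -1.78 (Hbb-bs). None of the markers in these lists was at 0 in every tumor. Summed tumor identity genes (neuronal and Group 3 genes) were at 1548 to 2315 and 1302 to 1944 CPM, with 1 of 7 called, Tubb3, lower in GTML. The part of the cell mixture in the differences below was not tested.

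**Figure D1:**
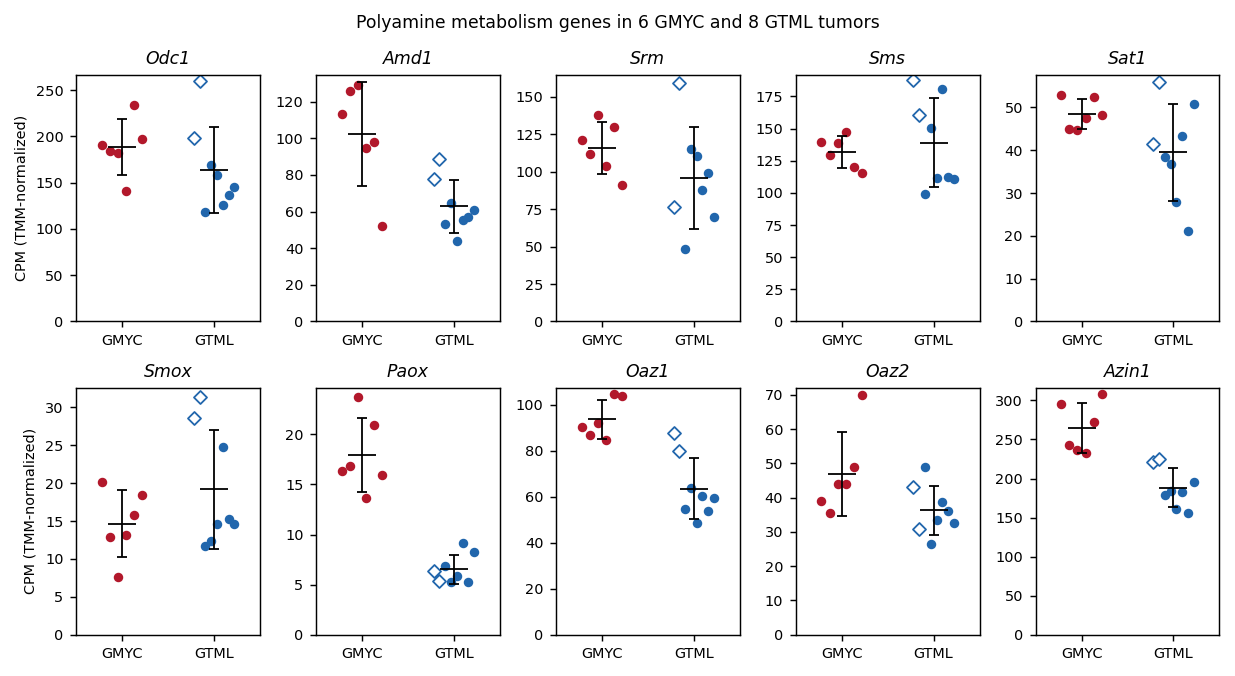
Expression of the 10 polyamine genes in each tumor, as TMM-normalized CPM on linear axes that start at 0. Points are tumors (red, GMYC, n = 6; blue, GTML, n = 8; open diamonds, GTML tumors 1 and 2), and bars show the mean ± SD. The models did not overlap for Paox and Azin1, and overlapped for the other 8 genes.

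Odc1, which encodes the enzyme of the first and rate-limiting step, was expressed at 141, 188 and 234 CPM (lowest, median and highest) in GMYC tumors. In GTML tumors it was at 118, 152 and 260 CPM. The GTML range enclosed the GMYC range, with the highest value in GTML tumor 2 and the lowest in GTML tumor 3. The log2 fold change was -0.20 ± 0.17 (SE), adjusted p = 0.390 by edgeR's quasi-likelihood test. The 95% interval ran from a 31.7% lower to an 11.04% higher level in GTML, so that a difference as large as that of Paox lay outside it.

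Amd1 makes decarboxylated S-adenosylmethionine, the donor of the aminopropyl groups. It was expressed at 51.9, 106 and 129 CPM in GMYC and at 44.2, 59.1 and 88.5 CPM in GTML tumors. The 8 GTML values lay below 5 of the 6 GMYC values, and GMYC tumor 6, the one with few Myc reads, lay among the GTML tumors. Amd1 was 38.5% lower in GTML (log2 fold change -0.70 ± 0.19, adjusted p = 0.0198). Without GMYC tumor 3 the call was lost (-0.62, adjusted p = 0.0536 by edgeR).

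Srm was expressed at 91.1, 116 and 138 CPM in GMYC and at 48.3, 93.6 and 159 CPM in GTML tumors. The GTML tumors were spread on both sides of the GMYC range, GTML tumor 3 being the lowest and GTML tumor 2 the highest. Its log2 fold change was -0.27 ± 0.21 (adjusted p = 0.338), with a 95% interval from 38.9% lower to 11.8% higher. Sms, an X-linked gene, was at 115, 134 and 148 CPM in GMYC and at 99.2, 132 and 188 CPM in GTML tumors. The GMYC tumors again lay within the range of the GTML tumors. Its log2 fold change was 0.08 ± 0.15 (adjusted p = 0.728), with a 95% interval from 15.4% lower to 31.5% higher.

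Of the enzymes that break polyamines down, Paox, the peroxisomal oxidase that acts on acetylated polyamines, was expressed at 13.6, 16.6 and 23.7 CPM in GMYC tumors. In GTML tumors it was at 5.28, 6.08 and 9.12 CPM. Each GTML tumor lay below each GMYC tumor, a separation in that direction that 2.48% of all genes tested had. Paox was 2.73-fold higher in GMYC (log2 fold change -1.45 ± 0.20, adjusted p = 0.00140), and its value stayed called in each fit that left out 1 tumor. It was the least expressed member in GTML tumors, so its value rested on fewer reads than those of the other genes.

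Sat1, X-linked like Sms, is the spermidine/spermine acetyltransferase whose product Paox oxidizes. It was at 44.7, 47.8 and 53.0 CPM in GMYC and at 21.1, 39.9 and 56.0 CPM in GTML tumors. The GMYC tumors were close together and the GTML tumors were not, GTML tumor 7 being the lowest. The log2 fold change was -0.29 ± 0.18 (adjusted p = 0.245; 95% interval, 37.6% lower to 6.57% higher). Smox, which oxidizes spermine directly, was at 7.65, 14.5 and 20.1 CPM in GMYC and at 11.7, 15.0 and 31.4 CPM in GTML tumors. GTML tumors 1, 2 and 6 lay above all GMYC tumors, and the other GTML tumors lay within the GMYC range. Its log2 fold change was 0.39 ± 0.28 (adjusted p = 0.329), and its interval was wide, from 13.9% lower to 98.3% higher.

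The 3 regulators of ornithine decarboxylase among the 10 genes had negative log2 fold changes, and 2 were called. Outside these 10, the antizyme Oaz3 was called higher in GTML (0.67, adjusted p = 0.0466 by edgeR). The antizyme inhibitor Azin2 was not called (-0.14, adjusted p = 0.718). Oaz1, the ubiquitous antizyme, was expressed at 84.8, 91.3 and 105 CPM in GMYC and at 48.7, 59.99 and 87.6 CPM in GTML tumors. GTML tumors 2 to 8 lay below all GMYC tumors and GTML tumor 1 lay within the GMYC range. Oaz1 was 32.2% lower in GTML (log2 fold change -0.56 ± 0.13, adjusted p = 0.0117). Azin1, which opposes the antizymes, was at 233, 258 and 309 CPM in GMYC and at 156, 184 and 225 CPM in GTML tumors. Here too each GTML tumor lay below each GMYC tumor, GTML tumors 1 and 2 being nearest to them. Azin1 was 28.9% lower in GTML (-0.49 ± 0.10, adjusted p = 0.00753).

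Oaz2, a second antizyme, was at 35.5, 44.0 and 69.9 CPM in GMYC and at 26.5, 34.8 and 48.9 CPM in GTML tumors. The ranges overlapped, and GMYC tumor 6 was the highest of all. Its log2 fold change of -0.37 ± 0.17 had an unadjusted p of 0.0494 and an adjusted p of 0.131 (edgeR). An unadjusted p under 0.05 was reached by 5 of the 10 genes and by 37.8% of all genes tested. Oaz1 and Azin1, whose proteins act on ornithine decarboxylase in opposite directions, were thus both lower in GTML tumors at the level of RNA.

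**Figure D2:**
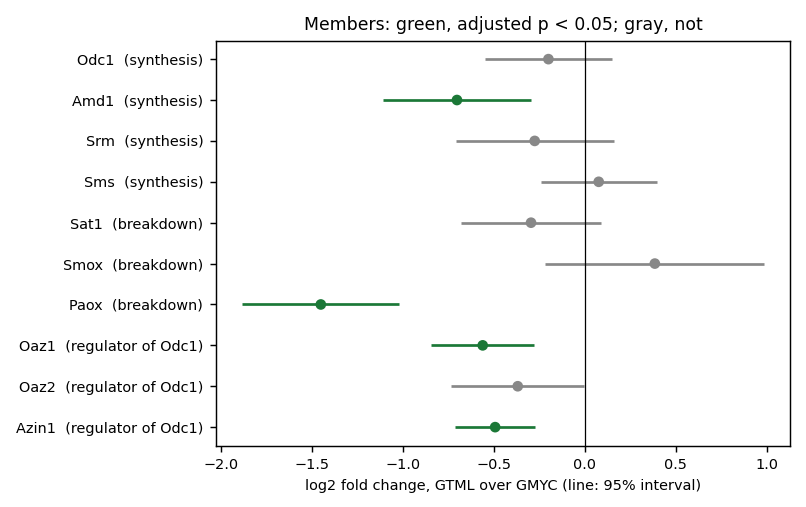
Log2 fold changes of the 10 genes, GTML over GMYC, with 95% intervals from edgeR's quasi-likelihood fit, labelled by role. Green marks an adjusted p under 0.05 (Amd1, Paox, Oaz1 and Azin1, all to the left of 0) and gray the other 6 genes.

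Levels were also compared between genes, as CPM per kilobase of exon, from reads assigned to the gene itself. Reads on copies of Amd1, Oaz1, Sms and Oaz2, given in the next paragraph, were left out. These 4 genes could stand higher in the order with their copies included. In GMYC tumors the order was Srm (72.5 ± 10.8), Odc1 (55.3 ± 8.82), Azin1 (42.3 ± 5.17), Oaz1 (36.7 ± 3.33), Amd1 (28.8 ± 8.01), Sms (21.9 ± 2.09), Sat1 (17.5 ± 1.29), Oaz2 (15.7 ± 4.08), Smox (3.77 ± 1.14) and Paox (3.65 ± 0.75). Neighbours in this order overlapped in their tumors except Sms and Sat1, and Oaz2 and Smox. In GTML tumors the order was Srm (59.97 ± 21.2), Odc1 (48.1 ± 13.6), Azin1 (30.1 ± 4.01), Oaz1 (24.9 ± 5.25), Sms (23.2 ± 5.81), Amd1 (17.7 ± 4.02), Sat1 (14.2 ± 4.07), Oaz2 (12.1 ± 2.404), Smox (4.93 ± 2.01) and Paox (1.33 ± 0.30). Neighbours overlapped except Oaz2 and Smox, and Smox and Paox. Amd1 and Sms exchanged places between the models, and Smox and Paox, which had overlapping levels in GMYC, were apart in GTML tumors.

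Processed pseudogenes and close copies share sequence with 4 of the genes, and reads may have been divided between them. Of the reads on Amd1 and its 4 copies (Amd2, Amd-ps1, Amd-ps3 and Amd-ps4), the copies held 28.3% to 47.4% per tumor. Oaz1-ps held 38.3% to 42.1% of the reads it had together with Oaz1, the copy of Sms 15.8% to 28.5%, and that of Oaz2 5.42% to 14.9%. These 7 copies had negative fold changes and 5 were called, Amd2 (-0.96), Amd-ps3 (-1.15), Amd-ps4 (-1.19), Oaz1-ps (-0.61) and Oaz2-ps (-0.85). With each gene summed with its copies, Amd1 had a log2 fold change of -0.82 (adjusted p = 0.0194) and Oaz1 of -0.58 (adjusted p = 0.00992). Oaz2 had -0.42 (adjusted p = 0.0809), Sms turned from 0.08 to -0.04, and the number of genes called remained 4.

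The GTML tumors were not alike. The study describes a GTML tumor with an SHH-like signature, did not include it when the models were compared, and does not name it, so all 8 were kept here. Amd1, Paox, Oaz1 and Azin1 were called whichever of the 8 GTML tumors was left out, and the other 6 genes were not. GTML tumors 1 and 2 were the highest of the 8 for 5 of the 10 genes (Odc1, Amd1, Smox, Oaz1 and Azin1), as they were for 11.6% of all genes tested. Odc1 averaged 229 CPM in GTML tumors 1 and 2 and 142 CPM in GTML tumors 3 to 8, beside 174 CPM in GMYC tumors 1 to 4 and 216 CPM in GMYC tumors 5 and 6. For Oaz1 the averages were 83.8 and 56.9 CPM in GTML and 88.6 and 104 CPM in GMYC tumors. Paox had no such split, with 5.86 and 6.76 CPM in GTML and 17.6 and 18.5 CPM in GMYC tumors. Summed Y-linked genes, which mark male tissue, were at 285 to 478 CPM in GMYC and 0.611 to 419 CPM in GTML tumors. Each GMYC tumor had at least 2115 Y-linked reads, and GTML tumors 1, 4, 6 and 7 had at least 1102. GTML tumors 2, 3, 5 and 8 had at most 16. Tumors without male levels of these reads were thus found in GTML only, so sex and model were in part confounded. With a covariate from the Y-linked genes, 2 of the 10 genes were called (Paox and Azin1), where 8.02% of all genes were. GMYC tumor 6 had the lowest Amd1, Srm and Sms and the highest Oaz2 and Azin1 of the 6 GMYC tumors.

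**Figure D3:**
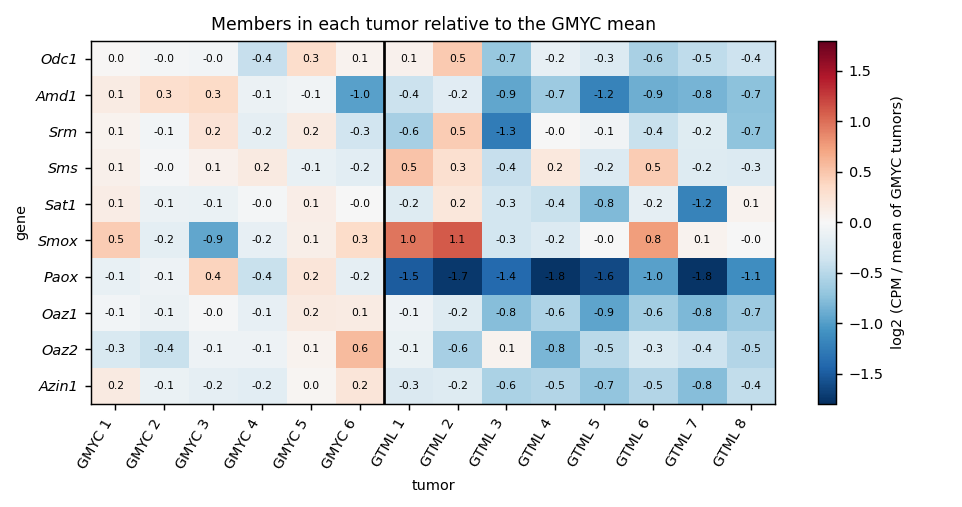
Log2 ratio of each gene's CPM in each tumor (columns; the vertical line parts GMYC from GTML) to the mean of the GMYC tumors, printed in each cell and coloured from blue (lower) to red (higher). Paox was low in all 8 GTML tumors. Oaz1 was below the GMYC mean in all 8 GTML tumors, least so in tumors 1 and 2.

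Within the side above 0.3% small nucleolar RNA (4 GMYC and 2 GTML tumors) 0 of the 10 genes was called, where 0.0106% of all genes were called, and within the side below it (2 GMYC and 6 GTML tumors) 4 were called, where 13.3% of all genes were. The 4 genes of the lower side were Odc1, Paox, Oaz1 and Azin1, so that Amd1 was replaced by Odc1. Odc1 had a log2 fold change of 0.40 (adjusted p = 0.406, edgeR) above and -0.61 (adjusted p = 0.0392) below 0.3%. Oaz1 had -0.07 (adjusted p = 0.858) and -0.88 (adjusted p = 0.0150), and Azin1 had -0.16 (adjusted p = 0.662) and -0.73 (adjusted p = 0.0153). Paox had nearly the same value on both sides, -1.58 (adjusted p = 0.223) and -1.45 (adjusted p = 0.0244). Amd1 had -0.47 (adjusted p = 0.365) and -0.43 (adjusted p = 0.228), each smaller than its pooled value. The difference between the sides, tested as an interaction in edgeR, was called for 0 of the 10 genes and 0 of the 21024 tested. Its unadjusted p was under 0.05 for 4 of the 10 (Odc1, Oaz1, Azin1 and Smox, adjusted p = 0.205, 0.205, 0.2501 and 0.269) and for 15.1% of all genes. The split was taken from earlier results of these data and the interaction was added with the values known, and the part of whatever the split stands for was not tested.

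**Figure D4:**
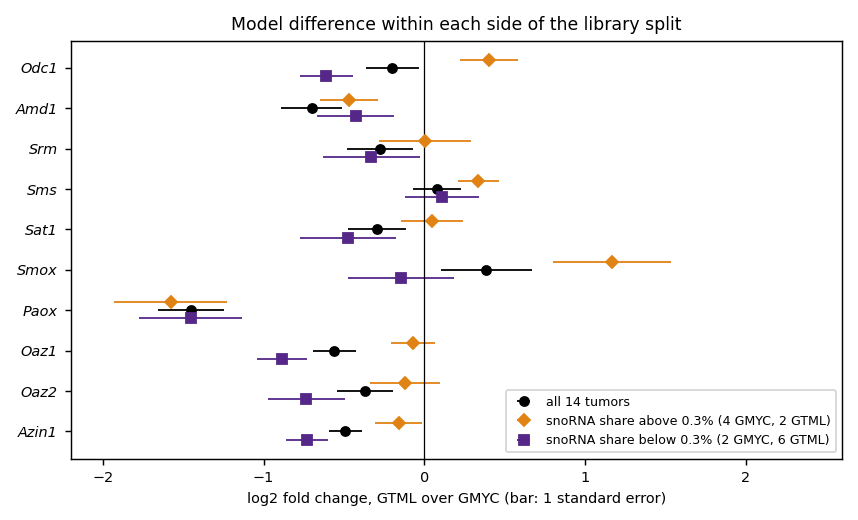
Log2 fold changes of the 10 genes, GTML over GMYC, ± 1 SE, in all 14 tumors (black), in the tumors above 0.3% small nucleolar RNA (orange) and in those below it (purple). The 3 values of Paox lay between -1.58 and -1.45, whereas those of Odc1 lay on both sides of 0.

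Genes around the polyamine cycle were described from a list of 26, of which 24 were tested (Agmat and Mat1a had too few counts). Of these, 6 were called, 4 lower and 2 higher in GTML, against the 9.71% and 11.5% of all genes given above. With 1 tumor left out at a time this count ranged from 1 (without GTML tumor 7) to 10 (without GTML tumor 2). Their median log2 fold change was -0.13. The list for the supply of arginine and ornithine had 5 genes tested, and it also held Azin2, which is an antizyme inhibitor like Azin1. Of these, 1 was called, Oat (ornithine aminotransferase), at 144 ± 17.2 CPM in GMYC and 96.9 ± 19.4 in GTML tumors (-0.57 ± 0.13, adjusted p = 0.0106). Arg2, the mitochondrial arginase, had the largest value of that group and was not called (0.84, adjusted p = 0.0798, at 2.26 and 4.06 CPM). For S-adenosylmethionine supply 0 of 2 were called, Mat2b having the larger value (-0.27, adjusted p = 0.0661).

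Of 5 genes of methylthioadenosine salvage, which recycles the by-product of both aminopropyl transfers, Adi1 was called (34.5 ± 6.98 and 19.1 ± 10 CPM, -0.85 ± 0.26, adjusted p = 0.0327). Of 4 genes of hypusination, the modification of eIF5A that consumes spermidine, Eif5a itself was called (206 ± 19.5 and 164 ± 26.2 CPM, -0.33 ± 0.11, adjusted p = 0.0453), while its paralog Eif5a2 had 0.41 (adjusted p = 0.106). Of 5 transport genes, Slc3a2, the heavy chain of amino acid transporters, was called (154 ± 21.5 and 115 ± 23.5 CPM, -0.42 ± 0.13, adjusted p = 0.0340), and Slc12a8 had 0.58 (adjusted p = 0.264). Both genes higher in GTML came from the 3 further antizymes and acetyltransferases. Oaz3, the antizyme known from testis, was at 10.7 ± 1.20 and 17.0 ± 5.58 CPM (0.67 ± 0.23, adjusted p = 0.0466), and its call was lost in 11 of the 14 fits that left out 1 tumor and by limma-voom (0.60, adjusted p = 0.0646). Satl1 was at 0.291 and 1.04 CPM (1.77 ± 0.45, adjusted p = 0.0151), with 1 to 12 reads per tumor. Its highest GMYC value was 0.422 CPM, so it passed the filter on low counts through GTML tumors alone. The direction of its call was therefore favoured by the filter and is no support. It was tested in 11 of the 14 fits that left out 1 tumor. Of the genes lower in GTML, Oat kept its call in all 14 of those fits, whereas Adi1 lost it in 6, Slc3a2 in 7 and Eif5a in 9.

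**Figure D5:**
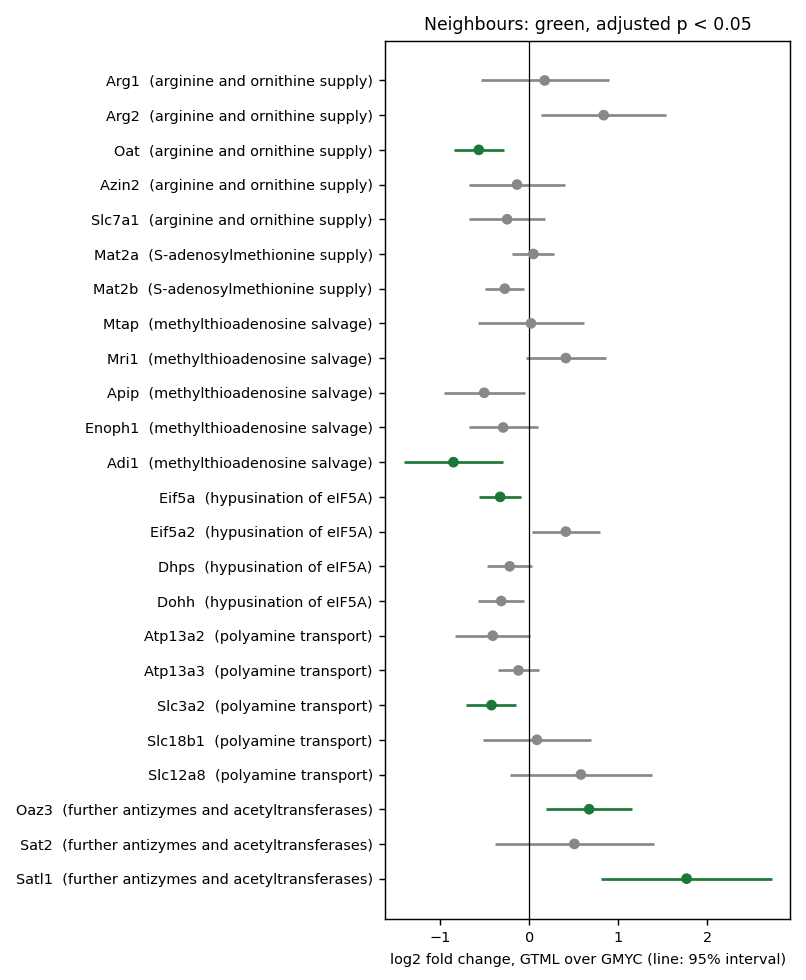
Log2 fold changes of the 24 neighbouring genes tested, GTML over GMYC, with 95% intervals from edgeR, grouped by list. Azin2, an antizyme inhibitor, is labelled with arginine and ornithine supply. Green marks an adjusted p under 0.05, and the 6 green genes lay between -0.85 (Adi1) and 1.77 (Satl1).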

How the data were processed

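Biopsies of 6 GMYC and 8 GTML tumors were sequenced (Ion Torrent), the paper crediting GTML sequences to an earlier study. The authors aligned the reads to mm9 with STAR (2.4.0) and then Bowtie2 (2.2; versions per the submitters' processing notes; the paper gives later ones for both, and which made the counts is not settled), counted them per gene with featureCounts (Subread 1.5.2, GENCODE) and deposited whole-number counts without normalization. Strand and duplicate handling are not given in the sources used here. Another 18 columns of counts matched no sample label and were not used, so the comparisons of cultured cells were not run.

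Symbols and exon lengths were matched by Ensembl identifier to a GRCm38 annotation (32620 of 37310 genes). The test was run on genes above 1 CPM in 3 or more tumors, with edgeR 4.0.16 in R 4.3.3 (TMM, quasi-likelihood test, Benjamini-Hochberg adjustment over 21024 genes, threshold 0.05). The study used limma-voom, which was an alternative (limma 3.58.1) beside DESeq2 1.42.0, other filters, scalings and covariates, and leaving out each tumor. Code was tested on simulated counts. Figures were drawn with matplotlib 3.10.9. Named were the 10 members, each neighbouring gene called or with the largest change of its list, the drivers and the copies; the comparison of other genes with the pattern of Odc1 is not reported here. Tubb3, Slc1a2, Cbln3, Alas2, Hbb-bt, Hbb-bs, and the other neighbours in the closing section, were named after their values were seen. Summing genes with their copies and the interaction were added with the values known. The members and lists were chosen with earlier results of these data known. No source states that the tumors came from separate mice in every case, so p-values measure the spread between these samples.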

Additional observations from a re-analysis of the deposited data

Results flagged for a closer look

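Values standing far from the rest of their model were looked for in 86 groups (each polyamine gene, neighbouring gene, driver and copy in each model, by the gap to the nearest value over the range), of which about 4.3 are expected to pass by chance, and 7 passed. None was a value of the 10 polyamine genes. Arg2 was at 4.31 CPM in GMYC tumor 4, where the next tumor had 2.25 CPM. In GMYC tumor 6, Slc7a1 was at 115 CPM (the next at 265), Myc at 33.4 CPM (the next at 134) and Oaz2-ps at 11.3 CPM (the next at 6.44). In GTML tumor 2, Mat2b was at 104 CPM (the next at 86.0), Enoph1 at 89.1 CPM (the next at 53.8) and Adi1 at 42.9 CPM (the next at 21.2).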

How the results depend on the processing

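Of 280 values of the 10 genes under 28 alternatives each, 262 kept their direction and side of the threshold, 12 were no longer called, 1 became called and 5 changed sign; of 665 values of neighbouring genes these were 571, 56, 14 and 24, and of 183 of copies 133, 48, 0 and 2. The number of genes called was 4, and 3 to 4 with each tumor left out (3 without GMYC tumor 3); the number past the stricter thresholds was 1, and 1 in each of those fits; neighbours called were 6, and 1 to 10 (1 without GTML tumor 7, 10 without GTML tumor 2, 2 without GMYC tumors 3 or 5 or GTML tumors 3, 5, 6 or 8). Above 0.3% small nucleolar RNA these 3 counts were 0, 0 and 0, and below it the stricter count was 0, with fewer tumors in each fit. With a covariate from Y-linked genes they were 2, 0 and 2 (cause not tested), where Amd1 had -0.67 (adjusted p = 0.103) and Oaz1 -0.49 (adjusted p = 0.0889). With a term for the split, Amd1 had -0.45 (adjusted p = 0.0660).

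With the replicate number as a block the counts were 1, 0 and 0, over numbers found in both models; 1.22% of all genes were then called, and Amd1 (-0.66, adjusted p = 0.0871), Oaz1 (-0.53, adjusted p = 0.101) and Azin1 (-0.46, adjusted p = 0.0719) were no longer called by edgeR. Same-numbered tumors deviated with r between -0.21 and 0.21, so the numbers did not pair the tumors.

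These values changed sign, and the cause was not tested. Above 0.3% they were Odc1 0.403, Srm 0.00131, Sat1 0.0473, Enoph1 0.0753, Eif5a 0.00967, Oaz3 -0.00691, Sms-ps 0.234, Slc18b1 -0.348 and Arg1 -0.106, and below it Smox -0.145, Amd-ps1 0.98, Slc7a1 0.0152, Atp13a3 0.231 and Arg1 -0.124. Sms had -0.0414 summed with its copy. Arg1 had -0.114 with the term for the split and -0.183 with the Y-linked covariate. Mtap had -0.0175 by limma-voom, -0.0151 with TMM from genes under 0.2 counts per exon base, -0.148 with the Y-linked covariate and -0.0123 over protein-coding genes, and Slc18b1 had -0.0118 with the replicate block. With each tumor left out, Azin2 ranged from -0.244 to 0.0032, Mat2a from -0.0511 to 0.0978, Mtap from -0.226 to 0.137 and Slc18b1 from -0.0464 to 0.2501. DESeq2 gave no adjusted p for 74 genes. The alternatives planned for cultured cells were not run. With counts thinned to the smallest total, 4 of the 10 genes were called.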
